A study of Mus musculus with 16 samples.

Results

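The expression of 9 genes of retinoid storage, transport and metabolism was followed in 16 mouse liver libraries: Rbp4, Lrat, Dhrs3, Aldh1a1, Aldh1a7, Cyp26a1, Rdh5, Rdh7 and Bco1. They were taken by symbol from a table of 55401 genes, and each matched 1 row. Of the 10846 genes with at least 1 FPKM (fragments per kilobase of transcript, scaled to library size) in at least 4 libraries, 8 were among these 9. Cyp26a1 was too low to pass and was read from a fit with no filter beyond a total count of 10.

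The study crossed a vector with a treatment, with 4 mice per group. The groups were AKR1B10 knockdown with BBR, AKR1B10 knockdown without it, negative control with BBR, and negative control without it. BBR was read from the title of the series as berberine, a plant alkaloid, studied there in fatty liver disease. The sample descriptions begin with AAV in all 4 groups (AAV_NC, AAV_NC_B, AAV_A and AAV_A_B). AAV was read as an adeno-associated viral vector. The vector's target sequence and promoter, the diet, strain, sex, age, berberine dose and time of killing were not given in the sources used here.

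Vitamin A circulates as retinol and is stored in liver stellate cells as retinyl ester. Retinol is oxidised reversibly to retinal, and retinal irreversibly to retinoic acid, the ligand of nuclear receptors that switch on genes including that of the enzyme clearing it. The hepatocyte is the main source of the retinol carrier of blood. AKR1B10, the enzyme named in the labels, is known in human as a reductase of aldehydes that include retinal, which places it at the branch point of this pathway.

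Total counts per library were 46273129 to 54394727 in the libraries labelled knockdown with berberine, 54764510 to 65012872 in those labelled knockdown, 54570970 to 63244096 in the negative controls with berberine and 50028526 to 66235443 in the negative controls. The mouse gene Akr1b10 itself was not lower under the knockdown label. It averaged 0.451 ± 0.058 FPKM in the libraries labelled knockdown with berberine, 0.528 ± 0.230 FPKM in those labelled knockdown, 0.359 ± 0.169 FPKM in the negative controls with berberine and 0.397 ± 0.151 FPKM in the negative controls (SD, n = 4 each). Akr1b3, the mouse aldose reductase of the same family, averaged 0.343 ± 0.111 FPKM in the libraries labelled knockdown with berberine, 0.312 ± 0.198 FPKM in those labelled knockdown, 0.591 ± 0.0970 FPKM in the negative controls with berberine and 0.420 ± 0.125 FPKM in the negative controls. Under berberine its highest library of the knockdown label, at 0.455 FPKM, lay below the lowest control, at 0.503 FPKM, and without berberine the groups overlapped. Akr1b3 was below 1 FPKM in every library and so was not among the genes tested. Of those tested, 2.27% were lower without overlap in the same comparison, in counts scaled to the library. Directions below therefore refer to the label and say nothing of a loss of AKR1B10. Hepatocyte markers were abundant throughout, at a summed 19867 FPKM over 7 genes in knockdown library 4 and 31180 to 38934 FPKM in the other 15. Knockdown library 4 stood apart in a further measure, with 35.4% of its counts in mitochondrially encoded genes, against 10.98% to 15.9% elsewhere. Knockdown library 3 and berberine control library 2 carried acute phase transcripts at a summed 19126 and 17574 FPKM over 9 genes, against 2121 to 6040 FPKM in the other 14. Knockdown library 3 also held neutrophil markers at a summed 328 FPKM over 8 genes, against 0.398 to 21.1 FPKM in the other 15, and the highest sum of Kupffer cell and macrophage markers, at 308 FPKM over 11 genes, against 52.4 to 190 FPKM in the others.

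By edgeR's quasi-likelihood test, adjusted after Benjamini and Hochberg, 0 of the 10846 genes tested (0%) passed an adjusted p of 0.05 in any comparison, and so did 0 of the 9 retinoid genes. Unadjusted p-values under 0.05 numbered 399 to 1603 genes in a comparison, and DESeq2 called 3 to 105 genes, none of them a member. The share of genes with an unadjusted p under 0.05 is given with each comparison as the background for the retinoid genes. The comparisons share groups: the knockdown label against control and berberine within the knockdown label both use the libraries labelled knockdown, and a library that stands apart there enters both with opposite sign.

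Stretches of promoter are printed for 4 of the genes, which hold a repeat of the hormone response element form or have a near-identical neighbour. Sequences and positions are from RefSeq, build GRCm38.p6, and run 5′ to 3′ on the strand of the gene up to the base before its annotated start. The 250 bases before Cyp26a1, the retinoic acid hydroxylase (chr19:37697558-37697807, plus strand), are shown with a direct repeat in capitals.
Cyp26a1: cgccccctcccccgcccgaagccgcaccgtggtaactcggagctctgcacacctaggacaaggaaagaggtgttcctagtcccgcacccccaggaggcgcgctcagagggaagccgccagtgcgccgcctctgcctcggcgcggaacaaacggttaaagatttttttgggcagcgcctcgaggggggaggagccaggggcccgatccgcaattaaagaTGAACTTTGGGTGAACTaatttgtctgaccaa
The capitals are the motif AGTTCANNNNNAGTTCA on the opposite strand, at bases -32 to -16 before the start. This DR5 form, a repeat with 5 bases between its arms, is a classical binding motif of retinoic acid receptors. The search took each arm as AGGTCA or AGTTCA, on both strands, with spacers of 1, 2 or 5 bases (DR1, DR2 and DR5), over windows of 300 bases that run 250 bases before to 50 after the start. Any DR5 form occurred in 13 of 32851 windows of all genes (0.0396%), any DR2 form in 13 and any DR1 form in 27 (0.0822%).

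The 100 bases before Bco1, the carotene-cleaving enzyme (chr8:117095765-117095864, plus strand), hold a DR1 repeat, the form bound by heterodimers of the retinoid X receptor with other nuclear receptors.
Bco1: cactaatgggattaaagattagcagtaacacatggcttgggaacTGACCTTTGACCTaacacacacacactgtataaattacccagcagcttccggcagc
The capitals are AGGTCANAGGTCA on the opposite strand, at bases -56 to -44. The 9 genes had 14 windows in all, and the other members had no match to these letters in theirs. A match describes the letters and was not tested as a binding site.

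The remaining stretches belong to Aldh1a1, a retinal dehydrogenase that makes retinoic acid (chr19:20601868-20601967, plus strand), and its neighbour and paralog Aldh1a7 (chr19:20727557-20727656, minus strand). Aldh1a1 has another annotated start upstream, and the start printed was picked as the one more like Aldh1a7. In its window 216 of 282 aligned bases were identical to the Aldh1a7 window, against 8 of 15 for the other start.
Aldh1a1: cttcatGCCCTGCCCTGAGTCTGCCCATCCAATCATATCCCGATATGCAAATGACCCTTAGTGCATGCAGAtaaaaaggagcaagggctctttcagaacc
Aldh1a7: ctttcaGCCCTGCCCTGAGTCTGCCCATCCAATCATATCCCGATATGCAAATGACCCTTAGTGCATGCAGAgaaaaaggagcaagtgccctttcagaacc
The capitals mark their longest shared run, 65 bases from position -94 in both. Without gaps, 94 of the 100 bases were identical. The likeness goes on into the coding sequences, of 1503 bases each, which were identical at 1377 positions (91.6%).

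Levels per length differed widely between the 9 genes. Averaged over the 16 libraries, Rbp4 stood at 2531 FPKM, Rdh7 at 632 FPKM, Aldh1a1 at 231 FPKM, Aldh1a7 at 71.5 FPKM and Dhrs3 at 46.7 FPKM. Rdh5 followed at 5.04 FPKM, Bco1 at 0.967 FPKM, Lrat at 0.900 FPKM and Cyp26a1 at 0.608 FPKM. Each neighbour in that order was separated in at least 15 of 16 libraries down to Bco1. Bco1 and Lrat did not separate, since Bco1 was the higher of the pair in 8 of 16 libraries, and Lrat lay above Cyp26a1 in 13. Dhrs3 varied least, with a highest library 1.36 times its lowest, and Rdh7 followed at 1.80 times. Aldh1a1 varied most among the genes detected everywhere, at 5.84 times.

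**Figure D1:**
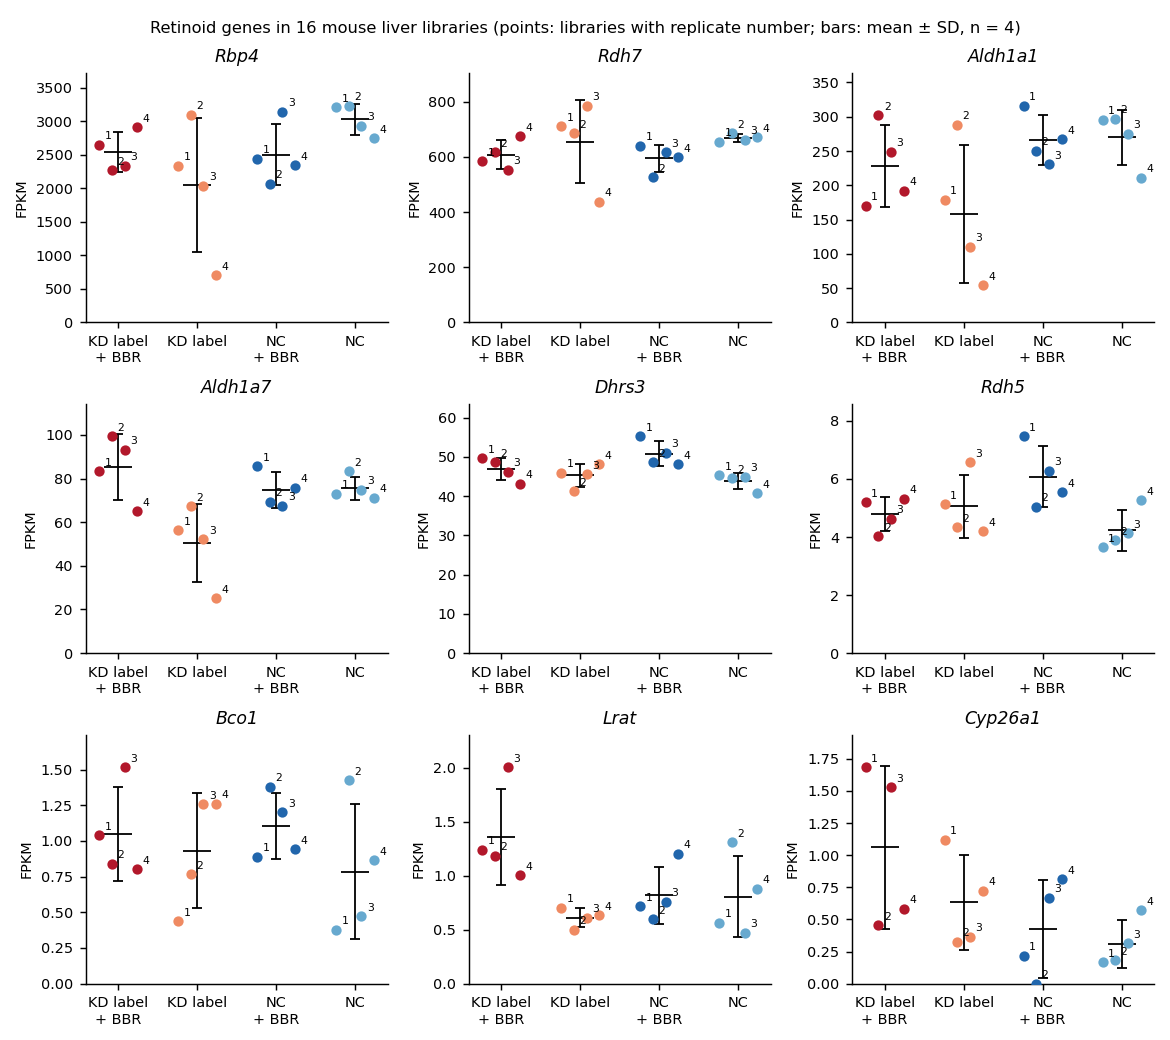
FPKM of each gene in the 16 libraries (y axis, linear from 0; points are libraries with their replicate number, bars are mean ± SD, n = 4), with groups from left to right: knockdown label with berberine, knockdown label, negative control with berberine, negative control. Rbp4, Aldh1a1 and Aldh1a7 are lowest in knockdown library 4, at 702, 54.1 and 25.2 FPKM, while Dhrs3 stays between 40.8 and 55.2 FPKM in every library.

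Rbp4, the carrier that takes retinol from the liver into blood, was lower on average in the libraries labelled knockdown than in the negative controls, with wide scatter. It had 2341, 3098, 2043 and 702 FPKM in the libraries labelled knockdown, against 3214, 3235, 2935 and 2745 FPKM in the negative controls. Library 2 of the knockdown label lay inside the control range, the other 3 lay below it, and library 4 was far below the rest. Its log2 fold change was -0.50 (SE 0.28, 95% interval -1.10 to 0.10; adjusted p = 0.395 by edgeR, Benjamini-Hochberg). Without library 4 it was -0.23, without libraries 3 and 4 it was -0.09, and without library 2 it was -0.76 (adjusted p = 0.0922 by edgeR).

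With berberine, Rbp4 had 2655, 2268, 2338 and 2917 FPKM in the libraries labelled knockdown with berberine and 2445, 2069, 3145 and 2349 FPKM in the negative controls with berberine. These groups overlapped almost completely, with a log2 fold change of -0.03 (SE 0.28). Berberine control library 2, the one with many acute phase transcripts, was the lowest of its group. The berberine contrasts of Rbp4 had log2 fold changes of 0.20 within the knockdown label and -0.27 within the controls (SE 0.28 each), with intervals that included 0.

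Transthyretin (Ttr), which binds the Rbp4 protein in blood and so keeps it from being filtered by the kidney, kept closer to its usual level. Ttr had 2169 FPKM in knockdown library 4 and 3839 to 5159 FPKM in the other 15. The ratio of Ttr to Rbp4 in FPKM was 1.94, 1.29, 2.52 and 3.09 in the libraries labelled knockdown, and 1.27 to 2.06 in the other 12 libraries. Knockdown libraries 3 and 4 thus lay above every other library in that ratio, and libraries 1 and 2 inside the range. These libraries also held the most acute phase transcripts (library 3) and the highest mitochondrial share (library 4), and the part of either in the ratio was not tested.

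Lrat, the enzyme that esterifies retinol for storage in stellate cells, had the largest log2 fold change of the 8 tested genes in the 4 comparisons. Lrat had 1.24, 1.19, 2.01 and 1.01 FPKM in the libraries labelled knockdown with berberine, against 0.705, 0.500, 0.611 and 0.633 FPKM in the libraries labelled knockdown. Every berberine library lay above every library of the same label without it, as was the case for 4.58% of all genes in the higher direction in FPKM and 2.2% in scaled CPM (counts relative to the library total after edgeR's TMM scaling). The size was a log2 fold change of 0.99 (SE 0.31, 95% interval 0.32 to 1.66; unadjusted p = 0.00657, adjusted p = 0.396 by edgeR, Benjamini-Hochberg), on 192 to 642 counts per library. It was 1.09 without knockdown library 4 and 1.08 without libraries 3 and 4. Lrat passed the filter of 1 FPKM in at least 4 libraries only through the libraries labelled knockdown with berberine. No library labelled knockdown reached 1 FPKM. The separation and p-values of Lrat thus belong to a gene kept because it was high there, and are description only. With no filter beyond a total count of 10, its log2 fold change was 1.02 (SE 0.30, adjusted p = 0.622 by edgeR).

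The controls showed no such separation. Lrat had 0.718, 0.598, 0.760 and 1.20 FPKM in the negative controls with berberine, against 0.565, 1.31, 0.471 and 0.881 FPKM in the negative controls. The groups overlapped widely, with a log2 fold change of 0.05 (SE 0.31). The interaction, the berberine difference within the knockdown label minus that within the controls, was 0.94 (SE 0.44, 95% interval 0.00 to 1.88; unadjusted p = 0.0493, adjusted p = 0.756 by edgeR). The libraries labelled knockdown with berberine were above the negative controls with berberine by a log2 fold change of 0.69 (SE 0.31; adjusted p = 0.995 by edgeR), and there the groups overlapped through 1 control of 1.20 FPKM. That difference was 0.42 without replicate 3 of the libraries labelled knockdown with berberine, at 2.01 FPKM the highest in Lrat.

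In bulk liver, fewer cells of a type and less RNA per cell cannot be told apart, so Lrat was set beside 11 other stellate cell markers (Des, Dcn, Reln, Ngfr, Colec10, Colec11, Ecm1, Hgf, Pdgfrb, Cygb and Rgs5). None of the 11 was at a count of 0 in any library. Their summed FPKM was 63.8 to 99.6 in the libraries labelled knockdown with berberine, 46.7 to 75.0 in those labelled knockdown, 58.5 to 99.8 in the negative controls with berberine and 57.4 to 97.9 in the negative controls. Of the 8 that were tested, 5 were higher and 3 lower in the berberine comparison within the knockdown label, with Dcn, a matrix proteoglycan, the 1 at an unadjusted p under 0.05 (log2 fold change 0.50), and a median log2 fold change of 0.06, against -0.03 over all genes tested. Genes of activated stellate cells (Acta2, Col1a1, Col1a2, Col3a1, Timp1, Lox and Tagln) had the opposite sign to Lrat there, with a summed FPKM of 4.48 to 8.21 with berberine and 7.72 to 20.6 without it. Knockdown libraries 2 and 3, at 7.79 and 7.72, lay below the highest with berberine, and libraries 1 and 4 held 20.6 and 18.9. The sums were 8.59 to 9.70 in the negative controls with berberine and 5.63 to 11.2 in the negative controls. All 5 that were tested were lower with berberine within the label, 3 of them at an unadjusted p under 0.05 (Col1a1 -2.32, Acta2 -2.14 and Col1a2 -1.30, as log2 fold changes) and 0 at an adjusted one. An unadjusted p under 0.05 was found for 9.48% of all genes in this comparison. The part of stellate cell number or state in the Lrat values was not tested.

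**Figure D2:**
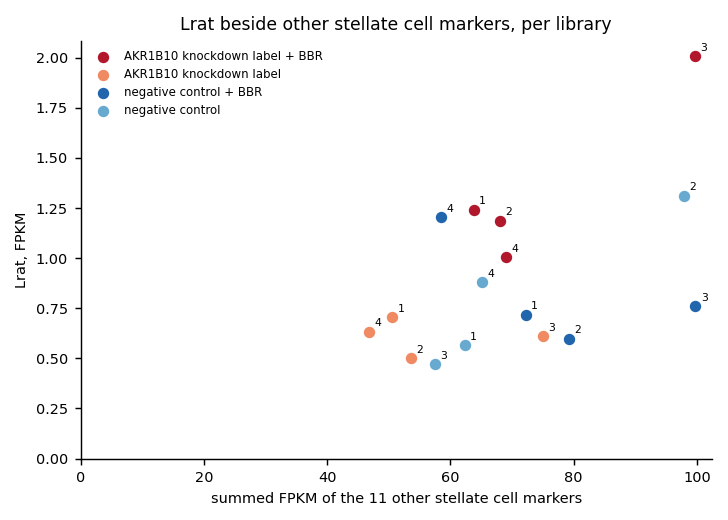
Lrat in FPKM (y axis) against the summed FPKM of the 11 other stellate cell markers (x axis), 1 point per library with its replicate number, coloured by group. The 4 libraries labelled knockdown with berberine lie above the 4 labelled knockdown in Lrat (1.01 to 2.01 against 0.500 to 0.705 FPKM). The marker sums of these groups overlap only through knockdown library 3, at 75.0. Knockdown libraries 1, 2 and 4, at 50.5, 53.6 and 46.7, lie below the 63.8 to 99.6 with berberine.

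Rdh7, a microsomal retinol dehydrogenase of mouse liver, was the most abundant enzyme of the set and nearly level. Rdh7 had 711, 686, 786 and 437 FPKM in the libraries labelled knockdown, against 656, 686, 663 and 671 FPKM in the negative controls. A log2 fold change of 0.06 was fitted (SE 0.13, 95% interval -0.21 to 0.33), and library 4 was the only low one. Berberine in the controls gave 640, 526, 617 and 599 FPKM, every library of which was below the 4 negative controls.

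That gap was small: the log2 fold change of Rdh7 was -0.16 (SE 0.13, adjusted p = 0.999 by edgeR), and 1.54% of all genes tested were lower without overlap in FPKM and 2.07% in scaled CPM. Within the knockdown label Rdh7 had 584, 617, 554 and 676 FPKM with berberine, a log2 fold change of -0.24 (SE 0.13; adjusted p = 0.559 by edgeR) that was -0.34 without knockdown library 4.

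Rdh5, an 11-cis-retinol dehydrogenase best known from the retinal pigment epithelium, had its highest values with berberine in the controls. It had 7.47, 5.04, 6.28 and 5.54 FPKM in the negative controls with berberine, against 3.64, 3.89, 4.12 and 5.26 FPKM in the negative controls. The groups overlapped in FPKM through control library 4 and did not overlap in scaled CPM, as for 1.48% of all genes in the higher direction. The fitted log2 fold change was 0.53 (SE 0.16, 95% interval 0.18 to 0.88; unadjusted p = 0.00570, adjusted p = 0.999 by edgeR), and it was the only retinoid gene of the 8 tested with an unadjusted p under 0.05 there, against 3.68% of all genes.

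Within the knockdown label, Rdh5 did not show that difference. It had 5.20, 4.03, 4.64 and 5.33 FPKM in the libraries labelled knockdown with berberine, against 5.14, 4.33, 6.57 and 4.20 FPKM in those labelled knockdown, and the groups overlapped (log2 fold change -0.22, SE 0.16). Its interaction was -0.75 (SE 0.23, 95% interval -1.25 to -0.26; unadjusted p = 0.00553, adjusted p = 0.756 by edgeR). The knockdown label compared with control gave 0.36 without berberine (SE 0.16; unadjusted p = 0.0443, adjusted p = 0.328 by edgeR) and -0.39 with it (SE 0.16; unadjusted p = 0.0308, adjusted p = 0.995 by edgeR). Under berberine Rdh5 did not overlap in scaled CPM, and neither did Dhrs3, as for 2.27% of all genes in the lower direction.

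The counts of Rdh5 carry a further uncertainty. The gene shares 25.6% of its exon bases with Bloc1s1 on the same strand in GENCODE M21, and 16.5% of its stretches of 150 bases occur unchanged in transcripts of that gene. The other members had no exon overlap, and only Rdh7 shared any such stretch, 0.981% with the pseudogene Rdh18-ps.

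Dhrs3, a reductase that returns retinal to retinol and so limits retinoic acid formation, was the steadiest member. It had 49.6, 48.7, 46.2 and 43.2 FPKM in the libraries labelled knockdown with berberine and 46.0, 41.3, 45.6 and 48.2 FPKM in those labelled knockdown. In the controls it had 55.2, 48.7, 51.1 and 48.2 FPKM with berberine, against 45.3, 44.6, 44.9 and 40.8 FPKM without it. The control groups did not overlap in FPKM, as was the case for 1.39% of all genes in the higher direction, and overlapped in scaled CPM. For Dhrs3 this was a log2 fold change of 0.22 (SE 0.12, 95% interval -0.03 to 0.48; adjusted p = 0.999 by edgeR), and the interaction was -0.34 (SE 0.17; adjusted p = 0.756 by edgeR).

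Bco1, which cleaves beta-carotene into retinal, was low and uneven in every group. It had 1.04, 0.841, 1.52 and 0.803 FPKM in the libraries labelled knockdown with berberine, 0.436, 0.767, 1.26 and 1.26 FPKM in those labelled knockdown, 0.890, 1.38, 1.20 and 0.943 FPKM in the negative controls with berberine, and 0.378, 1.43, 0.474 and 0.863 FPKM in the negative controls. All 4 groups overlapped, and the widest contrast, berberine in the controls, had a log2 fold change of 0.54 (SE 0.43, 95% interval -0.37 to 1.45). These values rest on 71 to 231 counts per library.

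**Figure D3:**
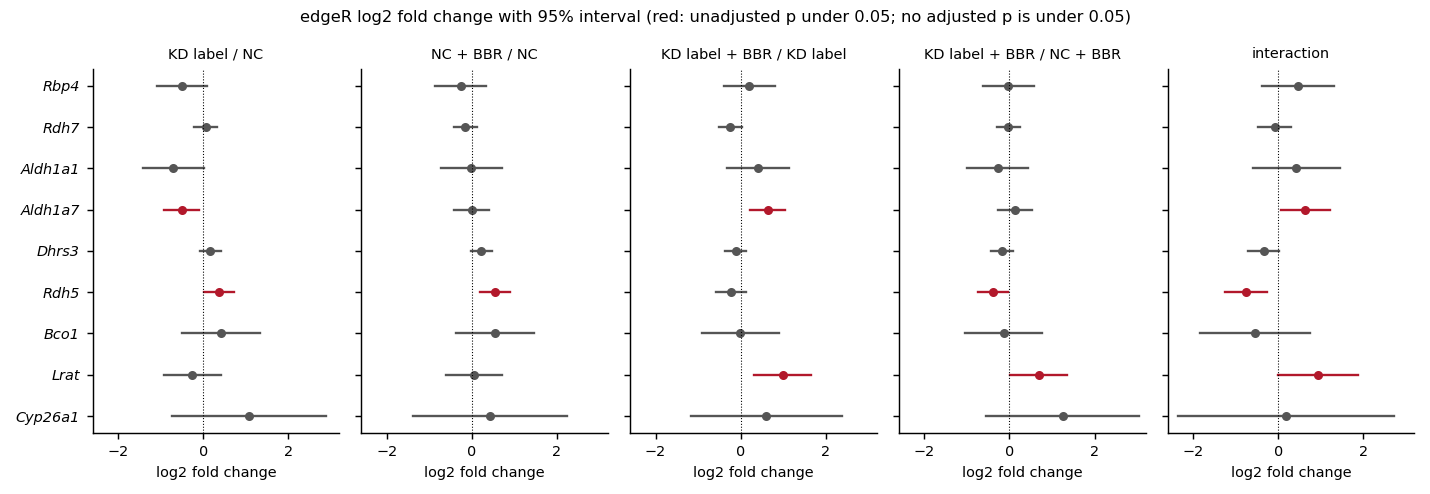
Log2 fold change (x axis) with its 95% interval from edgeR for the 9 genes (rows, by falling mean FPKM) in the 4 comparisons and the interaction (panels); each panel names the group on top first, and red marks an unadjusted p under 0.05. The intervals are narrowest for Dhrs3 and Rdh7 and widest for Cyp26a1, and no adjusted p is under 0.05.

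Aldh1a1 and Aldh1a7 both had lower values under the knockdown label without berberine. Aldh1a1 had 179, 289, 110.4 and 54.1 FPKM in the libraries labelled knockdown, against 296, 297, 275 and 211 FPKM in the negative controls. Library 2 of the label lay inside the control range and the other 3 below it. The log2 fold change was -0.70 (SE 0.34, 95% interval -1.43 to 0.03; unadjusted p = 0.0583, adjusted p = 0.341 by edgeR). It was -0.43 without library 4 and -0.14 without libraries 3 and 4.

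Leaving out knockdown library 2, the one at control level, gave -1.15 and an adjusted p of 0.0419 by edgeR. That fit called 609 of the 10846 genes tested, so passing the threshold in it was not particular to Aldh1a1. Among the alternatives run, it was the only fit in which any of the 8 tested retinoid genes passed the adjusted threshold. Library 2 was not among those that stood apart.

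Aldh1a7 had 56.3, 67.4, 52.3 and 25.2 FPKM in the libraries labelled knockdown, against 73.1, 83.3, 75.0 and 71.3 FPKM in the negative controls. The groups did not overlap in FPKM, as was the case for 4.55% of all genes in the lower direction, and did overlap in scaled CPM. The log2 fold change was -0.51 (SE 0.19, 95% interval -0.92 to -0.10; unadjusted p = 0.0187, adjusted p = 0.290 by edgeR). It was -0.32 without knockdown library 4 and -0.23 without libraries 3 and 4. With Rdh5, Aldh1a7 was 1 of 2 retinoid genes of the 8 tested with an unadjusted p under 0.05 in this comparison, against 14.8% of all genes.

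With berberine, Aldh1a7 had 83.5, 99.4, 93.2 and 65.0 FPKM in the libraries labelled knockdown with berberine, of which the lowest lay under the highest of the same label without berberine. The log2 fold change within the label was 0.63 (SE 0.19, 95% interval 0.22 to 1.04; unadjusted p = 0.00512, adjusted p = 0.396 by edgeR), 0.45 without knockdown library 4 and 0.36 without libraries 3 and 4. Lrat and Aldh1a7 were the 2 retinoid genes of the 8 tested with an unadjusted p under 0.05 there, against 9.48% of all genes. Of these, Lrat had passed the filter only through the libraries labelled knockdown with berberine.

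Aldh1a1 had 170.0, 302, 249 and 192 FPKM in the libraries labelled knockdown with berberine, and a log2 fold change within the label of 0.41 (SE 0.34, adjusted p = 0.723 by edgeR). In the controls the berberine differences of both genes were near 0. Aldh1a1 had 316, 250.3, 231 and 267 FPKM and Aldh1a7 had 85.7, 69.4, 67.5 and 75.8 FPKM in the negative controls with berberine, with log2 fold changes of -0.01 (SE 0.34) and -0.01 (SE 0.19). The interaction of Aldh1a7 was 0.64 (SE 0.27, 95% interval 0.06 to 1.22; unadjusted p = 0.0327, adjusted p = 0.756 by edgeR). In the interaction as a whole, 3 retinoid genes of the 8 tested (Rdh5, Aldh1a7 and Lrat) had an unadjusted p under 0.05, against 6.56% of all genes. The same limit on Lrat holds there.

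Markers of pericentral hepatocytes (Glul, Cyp2e1, Cyp1a2, Oat, Slc1a2, Rhbg, Axin2 and Lgr5), none of them at a count of 0 in any library, had differences of the same sign as the pair. Their summed FPKM over 8 genes was 2805 to 5729 in the libraries labelled knockdown with berberine, 1358 to 4255 in those labelled knockdown, 3419 to 4878 in the negative controls with berberine and 3962 to 5141 in the negative controls. All 7 that were tested were lower under the knockdown label than in the controls and higher with berberine within the label, with Oat and Glul in the first comparison and Oat and Cyp1a2 in the second at an unadjusted p under 0.05, against 14.8% and 9.48% of all genes, and 0 at an adjusted one. Of 7 general hepatocyte markers, 6 were lower under the label and 6 higher with berberine within it, with median log2 fold changes of -0.23 and 0.30 and 0 at an unadjusted p under 0.05 in either. Kupffer cell and macrophage markers, none at a count of 0 in any library, had the opposite sign to the pair. All 10 that were tested were higher under the label, 9 of them at an unadjusted p under 0.05, with a median log2 fold change of 1.10, and all 10 were lower with berberine within the label, 1 at an unadjusted p under 0.05, with a median of -0.54. Their summed FPKM was 65.3 to 190 in the libraries labelled knockdown with berberine, 92.3 to 308 in those labelled knockdown, 52.4 to 155 in the negative controls with berberine and 54.4 to 136 in the negative controls. The part of these cell types in the Aldh1a1, Aldh1a7 and Rbp4 values was not tested.

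No stretch of 150 bases of either paralog's transcripts occurred unchanged in another gene, in 2493 stretches of Aldh1a1 and 1917 of Aldh1a7, while shorter stretches are shared and the counting rule for them is not known. Aldh1a7 took 17.0%, 12.1%, 13.5% and 12.4% of the summed counts of the pair in the libraries labelled knockdown with berberine. Its share was 11.6%, 8.90%, 16.5% and 16.3% in those labelled knockdown, 10.2%, 10.4%, 10.9% and 10.6% in the negative controls with berberine, and 9.37%, 10.5%, 10.2% and 12.4% in the negative controls. The widest Wilson 95% interval was 15.8% to 16.9% in knockdown library 4, narrower than the spread between the mice of that group. It is meant for counting error only and takes each count as 1 fragment, so it may be too narrow.

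Under berberine the share averaged 13.8 ± 2.27% in the libraries labelled knockdown, against 10.5 ± 0.308% in the negative controls (SD, n = 4 each), without overlap. The exact two-sided permutation p over 70 splits was 0.0286, the smallest this design can give, and 0.229 after Benjamini-Hochberg adjustment over 8 exact comparisons. Without berberine the averages were 13.4 ± 3.73% under the knockdown label and 10.6 ± 1.26% in the controls, with an exact permutation p of 0.286. The berberine comparisons of the share had exact permutation p-values of 0.771 within the label and 0.886 within the controls.

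**Figure D4:**
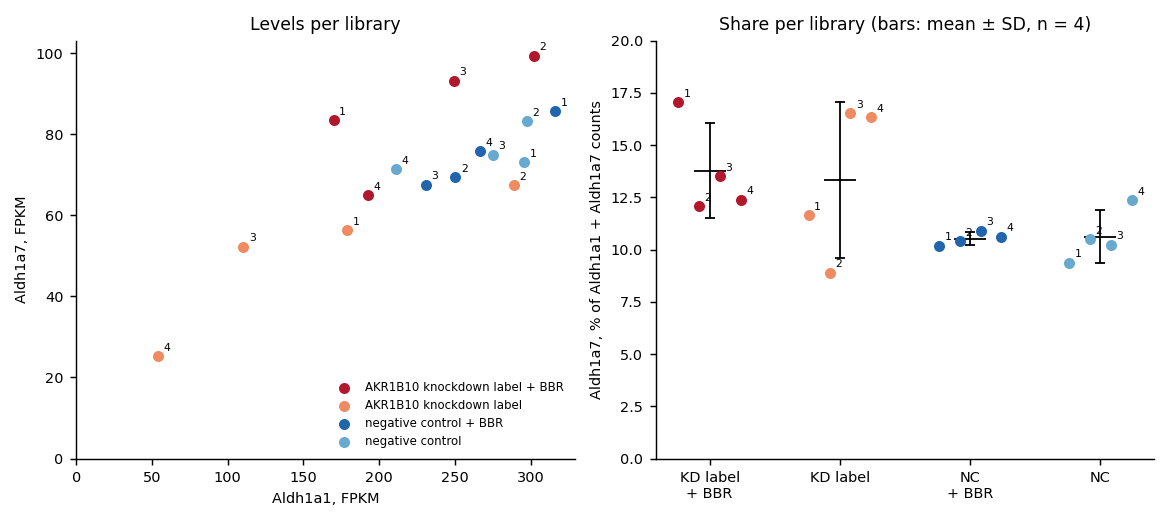
Left, Aldh1a7 against Aldh1a1 in FPKM, 1 point per library with its replicate number; right, the share of Aldh1a7 in the summed counts of both genes in percent, with mean ± SD (n = 4), groups ordered from knockdown label with berberine to negative control. The libraries labelled knockdown with berberine hold 12.1% to 17.0%, all above the 10.2% to 10.9% of the negative controls with berberine.

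Cyp26a1, which hydroxylates retinoic acid and is a classical retinoic acid target, was barely detected. It had 1.69, 0.454, 1.53 and 0.583 FPKM in the libraries labelled knockdown with berberine and 1.12, 0.326, 0.365 and 0.723 FPKM in those labelled knockdown. In the controls with berberine it had a count of 0 in library 2, deposited as 0.0001 FPKM, and 0.216, 0.670 and 0.815 FPKM in libraries 1, 3 and 4, against 0.166, 0.184, 0.313 and 0.570 FPKM in the negative controls. It averaged 1.06 ± 0.634 FPKM in the libraries labelled knockdown with berberine, 0.633 ± 0.370 FPKM in those labelled knockdown, 0.425 ± 0.381 FPKM in the negative controls with berberine and 0.309 ± 0.186 FPKM in the negative controls (SD, n = 4 each). Every pair of groups compared overlapped.

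By the exact two-sided permutation test of mean FPKM, p was 0.171 for the knockdown label without berberine, 0.171 with it, 0.286 for berberine within the label and 0.629 within the controls, and adjusted values were 0.457 to 0.838 over 8 exact comparisons. The unfiltered edgeR fit gave a log2 fold change of 1.07 for the label without berberine (SE 0.85, 95% interval -0.74 to 2.88) and 1.25 with it (SE 0.85, 95% interval -0.55 to 3.05). The levels rest on 0 to 202 counts. In the library with none, a count of 0 allows up to 3 counts, or 0.0550 CPM on the unscaled library total, if each count is 1 fragment. Low counts in these data are not always 1 fragment, so the true limit may be higher. The spread between mice within a group was wide, and no difference in Cyp26a1 passed a test. With 1 library left out, the difference in mean FPKM for the label without berberine ranged from 0.163 (without knockdown library 1) to 0.427, around 0.325.

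Set against the median of the negative controls in scaled CPM, knockdown library 4 held 25.4% of the Rbp4 level, where the other 15 libraries held 64.8% to 108%. It held 21.1% for Aldh1a1 (37.7% to 109.9% elsewhere), 36.5% for Aldh1a7 (66.2% to 118%) and 73.3% for Rdh7 (80.4% to 115%). The less abundant members were not low in it: Dhrs3 stood at 121%, Rdh5 at 115%, Bco1 at 209.9% and Lrat at 97.9%, each inside the range of the other libraries. Albumin (Alb) stood at 44.2% and Ttr at 57.9% in the same library. The members that were low there thus included the 4 most abundant, and the part of the high mitochondrial share in this was not tested.

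**Figure D5:**
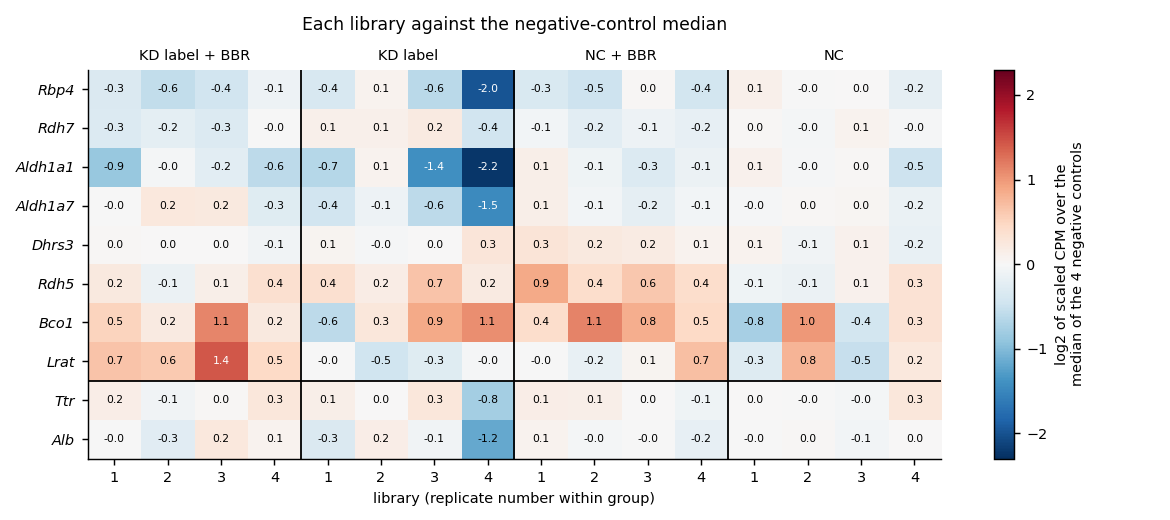
Log2 of each library's scaled CPM over the median of the 4 negative controls (colour and printed value), for 8 retinoid genes and, under the line, Ttr and Alb (rows), in the 16 libraries by replicate number (columns, grouped from knockdown label with berberine to negative control). Knockdown library 4 is the lowest column for Rbp4, Aldh1a1, Aldh1a7 and Rdh7, and Lrat is high in the libraries labelled knockdown with berberine.

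Across the 8 tested members there was no common direction. Under the knockdown label without berberine 4 were higher and 4 lower, with a median log2 fold change of -0.10, against 0.02 over all genes. Berberine in the controls gave 4 and 4 with a median of 0.02 (all genes -0.00), and berberine within the label 4 and 4 with a median of 0.10 (all genes -0.03). The label under berberine gave 2 higher and 6 lower, with a median of -0.08 (all genes -0.01), and 2 of the 8, Lrat and Rdh5, had an unadjusted p under 0.05, against 4.57% of all genes. Lrat was tested only because it was high in the libraries labelled knockdown with berberine.

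A wider list of 48 retinoid genes held the remaining binding proteins, retinol and retinal oxidoreductases, esterases, lipases and clearing enzymes, and 30 of them were tested. None passed the adjusted threshold. Under the knockdown label 10 were higher and 20 lower than in the controls, with a median log2 fold change of -0.17 that was -0.02 without knockdown libraries 3 and 4. The 3 with an unadjusted p under 0.05, of 30 tested and against 14.8% of all genes, were lower: Dhrs4, a retinal reductase (-0.38, SE 0.14), Adh1, an alcohol dehydrogenase that oxidises retinol (-0.52, SE 0.22), and Dhrs7, a short-chain dehydrogenase (-0.76, SE 0.35).

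With berberine in the controls, Lpl, a lipase that also frees retinol from circulating retinyl esters, averaged 5.20 ± 1.05 FPKM in the negative controls with berberine and 2.78 ± 0.590 FPKM in the negative controls (SD, n = 4 each; log2 fold change 0.92, SE 0.26, adjusted p = 0.999 by edgeR), and the groups did not overlap in FPKM, as was the case for 1.39% of all genes in the higher direction. Stra6l, the liver receptor for the Rbp4 protein, averaged 14.3 ± 2.88 FPKM in the negative controls with berberine and 9.15 ± 0.919 FPKM in the negative controls (0.65, SE 0.20). Over the 30 genes 11 were higher and 19 lower, and Dhrs4 was lower at an unadjusted p under 0.05 (-0.34, SE 0.14). Of all genes tested, 3.68% had an unadjusted p under 0.05 in this comparison.

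Berberine within the knockdown label gave 22 higher and 8 lower, with a median of 0.08 that was -0.06 without knockdown libraries 3 and 4. Rdh11, a reductase of retinal, averaged 11.6 ± 5.42 FPKM with berberine and 3.86 ± 1.89 FPKM without it (log2 fold change 1.46, SE 0.43, adjusted p = 0.396 by edgeR). The groups overlapped, with a lowest library of 4.62 FPKM with berberine and a highest of 5.08 FPKM without it. Lpl was lower by a log2 fold change of -0.57 (SE 0.26) there, and its interaction was -1.49 (SE 0.36, unadjusted p = 0.000965, adjusted p = 0.756 by edgeR). Of the 30 genes, 1 was higher and 1 lower within the label at an unadjusted p under 0.05, against 9.48% of all genes. In the interaction 6.56% of all genes had such a p.

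Between the berberine-treated groups, Cyp26b1, a relative of Cyp26a1 with the same activity, averaged 1.14 ± 0.414 FPKM under the knockdown label and 0.301 ± 0.314 FPKM in the controls (log2 fold change 1.9, SE 0.73, adjusted p = 0.995 by edgeR). Cyp26b1 reached 1 FPKM only in libraries of the knockdown label, so it was tested only because it was high there. The groups overlapped, with a lowest library of 0.620 FPKM under the label and a highest control of 0.745 FPKM. Counts were 171 to 512 under the label and 26 to 246 in the controls. Lpl (-1.06, SE 0.26), Pnpla2, a triglyceride lipase (-0.58, SE 0.24), and Rarres1, a retinoic acid-responsive gene from the separate list of targets (-0.75, SE 0.27), were lower there at an unadjusted p under 0.05. Such a p was found for 4.57% of all genes in this comparison. The nuclear receptors themselves showed little: of Rara, Rarb, Rarg, Rxra, Rxrb and Rxrg, 5 were tested and none had an unadjusted p under 0.05 in any comparison. Of 13 retinoic acid targets, some of which are also in the wider list or among the receptors, 6 were tested, and none passed the adjusted threshold.

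The 3 tested genes whose scaled log2 counts followed each member most closely over the 16 libraries differed between members. For Aldh1a1 they were Ppp1ca, Prps1l3 and Cops6, with Spearman's rho of 0.95, 0.95 and 0.947. For Rbp4 they were Gm5518, Akr7a5 and Emc6 (0.90, 0.876 and 0.874), and for Aldh1a7 Lias, Ssb and Phospho1 (0.885, 0.879 and 0.876). Dhrs3 was followed most closely by Lpl, at 0.921, and next by Proscos and Camta2 (0.862 and 0.859). Rdh7 was followed by Rpl17-ps10, Por and Slc16a12 (0.888, 0.85 and 0.835), Lrat by Gabbr2, Zbtb44 and Gypc (0.856, 0.824 and 0.815), Rdh5 by Krt18, Pheta1 and Trim12c (0.815, 0.782 and 0.771), and Bco1 by Tgfb1, AB124611 and Tgfbi (0.803, 0.803 and 0.794). All points of such a ranking share libraries and the differences between them, and without knockdown library 4 the values lay between 0.775 and 0.939.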

How the data were processed

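Poly(A) RNA of 16 livers was sequenced as paired 150-base reads from dUTP-marked libraries, per the labels' protocols. The submitters' processing notes name mm10, DESeq2, edgeR, StringTie 1.3.4d, HISAT2 2.0.4 and cutadapt 1.9, with roles not stated. Per the file headers, the authors deposited FPKM beside whole counts for each gene, with 0.0001 written for a count of 0. Whether counting used strand is not given in the sources used here. Counts of 4 (760 to 1283 genes per library) outnumber counts of 5 (144 to 208), so a low count is not always 1 fragment.

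From the counts, edgeR 4.0.16 (TMM scaling, quasi-likelihood test, 4 group means over all 16 libraries, two-sided, Benjamini-Hochberg adjustment over the 10846 genes tested) gave fold changes, SEs and 95% intervals. R 4.3.3 and Python 3.11.15 were used. Statistics were tested on simulated counts first. Cyp26a1 levels and the Aldh1a7 share were compared by exact permutation. Alternatives were median-of-ratios scaling, other filters, DESeq2 1.42.0, limma 3.58.1 on log2(FPKM + 1) and log2(FPKM + 0.1), the replicate number as a block, only the groups compared, and libraries left out. Scaled CPM used TMM factors. Named genes are the 9 members, up to 4 genes of each wider list with the smallest unadjusted p under 0.05 in a comparison (Rdh11, for example), and for each member the 3 genes most like it. Dcn, Col1a1, Col1a2, Acta2, Oat, Glul, Cyp1a2, Ttr and Alb fall outside this rule and were picked with their values in view. Akr1b10 and Akr1b3 serve to check the label. The values of 1 gene of the wider list are not reported here. The members and lists were chosen with earlier results of these data known. P-values measure the spread between the mice as labelled, and 0 pairs of libraries were identical. Gene overlaps were taken from GENCODE M21.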

Additional observations from a re-analysis of the deposited data

Results flagged for a closer look

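Dhrs3 in negative control library 4 stood at 40.8 FPKM, apart from the other 3 negative controls at 44.6 to 45.3 FPKM. Its gap to the nearest of them was 0.836 of the group's range, above Dixon's 95% critical value for 4 samples. Of 40 groups examined this was the only one, and chance sets a library apart in about 1 group in 20.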

How the results depend on the processing

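Of 16 member differences followed through 409 alternatives, 408 kept their direction and their side of the threshold, 0 reversed, and the exception was Aldh1a1 under the knockdown label without knockdown replicate 2 (-1.15, adjusted p 0.0419 by edgeR). Keeping that side says little, since the lowest adjusted p of a member in the main analysis was 0.290 by edgeR. Sizes did move. Without knockdown libraries 3 and 4, Rbp4 under the label went from -0.50 to -0.09 and Aldh1a1 from -0.70 to -0.14. Lrat with berberine within the label went from 0.99 to 1.08. Counts of all genes called were 0 in every comparison in the main analysis. DESeq2 called 105 genes for the label, 3 for berberine in the controls, 55 for berberine within the label, 5 for the label under berberine and 10 for the interaction, and none of the members. A fit to only the groups compared called 1 gene for berberine in the controls. Leaving out knockdown libraries 3 and 4 called 1 gene for the label, 1 for berberine within it and 1 for the interaction. Leaving out 1 library at a time called 0 to 609 genes for the label, 0 to 1 for berberine in the controls, 0 to 41 for berberine within the label, and 0 to 1 in the label under berberine and in the interaction; the 609 and the 41 came without knockdown replicate 2. Members called ran from 0 to 1 for the label. The cause was not tested.

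The wider list's median moved with the scale. Under the label it was -0.28 and -0.30 by limma on log2(FPKM + 1) and log2(FPKM + 0.1), and -0.025 without knockdown libraries 3 and 4. Within the label berberine gave 0.26 and 0.27 by limma and -0.058 without those libraries, and the interaction gave 0.34 and 0.39 by limma and 0.014 without them. On log2(FPKM + 1) the median of all genes tested itself shifted to -0.082 for the label, 0.11 for berberine within it and 0.14 for the interaction, and on log2(FPKM + 0.1) to -0.113, 0.157 and 0.184. With 1 library left out at a time, the Cyp26a1 difference for berberine in the controls ranged from -0.013 (without replicate 4 of the treated controls) to 0.26 FPKM, and within the label from 0.222 (without replicate 1 of the berberine libraries) to 0.633 FPKM, around 0.430. The Aldh1a7 share difference ranged from -0.50 to 0.50 percentage points for berberine in the controls, -1.07 to 1.47 within the label, 1.67 (without knockdown replicate 3) to 4.22 (without knockdown replicate 2) for the label, and 2.14 (without replicate 1 of the berberine libraries labelled knockdown) to 3.79 for the label under berberine, where 3 libraries against 4 cannot give a p below 0.0571.

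By correlation, replicate numbers showed little pairing: of 24 pairs, 4 correlated above 0.1 (from -0.166 to 0.214). Of 16 libraries, 3 had their highest mean correlation, over the other groups, with the libraries of their own number. The mitochondrial share did run alike by number in the controls. Libraries 1 to 4 held 11.68%, 11.04%, 13.28% and 12.71% without berberine, and 11.68%, 10.98%, 13.38% and 12.91% with it. Under the knockdown label they held 15.37%, 12.12%, 11.25% and 35.44% without it, and 15.9%, 11.93%, 13.96% and 14.62% with it. There only libraries 1 and 2 were close. Whether libraries of the same number shared a batch was not tested. With the replicate number as a block, 0 genes were called in each comparison, and the log2 fold changes were 1.00 for Lrat and 0.65 for Aldh1a7 within the label. Counts per library were lowest for Lrat (165 to 642), Bco1 (71 to 231) and Cyp26a1 (0 to 202).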
